A study of Mus musculus with 34 samples.

Results

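Positions of nucleosome calls and subnucleosome peaks were followed from elongating spermatids to sperm in mice whose germ cells lack Gcn5. The material was the 4 ATAC-seq libraries labelled GCN5_cKO.ES and GCN5_cKO.Sp, out of 34 in the series, and the 4 lists of intervals deposited for them, out of 24. All intervals of these lists were used: 540655 nucleosome calls and 473 subnucleosome peaks for elongating spermatids, and 347951 nucleosome calls and 1127 subnucleosome peaks for sperm. A sperm call was said to coincide with an elongating spermatid call when the intervals shared at least 1 bp.

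The mutant animals were C57BL6 GCN5-/- mice, with homozygous floxed alleles removed by a Cre recombinase under Stra8, a gene switched on as germ cells enter meiosis (cKO below). The comparison animals were C57BL6 GCN5+/+ mice (WT) and SV129 mice, both with intact Gcn5, at the same stages. Elongating spermatids (ES) came from testis fractions of at least 85% purity, and sperm from the cauda epididymis after lysis of somatic cells. Per the labels there were 2 libraries in each cKO and WT group, 4 in the SV129 ES group and 6 in the SV129 sperm group. The protocols describe pooled adult mice for SV129 only, and give no age for the C57BL6 animals. Reactions held 100000 sperm or 200000 spermatids, with Tn5 transposase at 2.5 or 5 units. Each group has 1 deposited list of each kind, so no value below has a replicate error and no test between conditions could be made. The intervals given with shares are 95% Wilson intervals for counting error, and they are too narrow because neighbouring calls overlap. Read depth per list is unknown.

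In elongating spermatids most histones are evicted, replaced first by transition proteins and then by protamines, which pack the sperm nucleus. Acetylation of histone tails precedes this exchange. Gcn5, encoded by Kat2a, is the acetyltransferase of the SAGA and ATAC coactivator complexes. ATAC-seq cuts DNA that proteins leave accessible, so long fragments can be read as nucleosome positions and short ones as open DNA between them. A nucleosome call at 1 place in both stages is a description of 2 lists and does not show that a particle was kept.

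Kat2a itself, at chr11:100704746-100712485 in build GRCm38, gave no check of the labels. Neither cKO list of either stage had an interval inside the gene. The WT and SV129 ES lists had 3 and 5 nucleosome calls there, and both intact sperm lists had 0.

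The promoters below show what coinciding calls looked like at single genes. Each line gives 300 bases, from 250 before to 50 after the start of the RefSeq gene, 5′ to 3′ on the gene's own strand in GRCm38.p6, with capitals for bases lying inside both a cKO sperm call and a cKO ES call. Gm21083, Chpf, Cpsf2 and Opn3 were among the 10 genes whose ends had the greatest length of cKO sperm calls touching an ES call. Hdac2 and Taf9, a histone deacetylase and a subunit of SAGA, were added after their values were seen.
Cpsf2, chr12:101975724-101976023, plus strand: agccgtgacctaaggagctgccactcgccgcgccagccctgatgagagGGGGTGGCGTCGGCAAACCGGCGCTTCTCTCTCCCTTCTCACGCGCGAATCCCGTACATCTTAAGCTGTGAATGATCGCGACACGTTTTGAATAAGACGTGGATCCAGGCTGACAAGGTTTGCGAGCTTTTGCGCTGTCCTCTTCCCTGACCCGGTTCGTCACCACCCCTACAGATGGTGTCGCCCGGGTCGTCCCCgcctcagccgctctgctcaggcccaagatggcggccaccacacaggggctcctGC
Chpf, chr1:75479422-75479721, minus strand: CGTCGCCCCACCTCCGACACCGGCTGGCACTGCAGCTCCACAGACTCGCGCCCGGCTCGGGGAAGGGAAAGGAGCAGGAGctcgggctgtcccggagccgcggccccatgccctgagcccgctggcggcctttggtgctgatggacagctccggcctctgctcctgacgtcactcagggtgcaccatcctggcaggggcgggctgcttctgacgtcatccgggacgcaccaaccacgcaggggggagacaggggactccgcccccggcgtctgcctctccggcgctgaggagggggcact
Opn3, chr1:175692583-175692882, minus strand: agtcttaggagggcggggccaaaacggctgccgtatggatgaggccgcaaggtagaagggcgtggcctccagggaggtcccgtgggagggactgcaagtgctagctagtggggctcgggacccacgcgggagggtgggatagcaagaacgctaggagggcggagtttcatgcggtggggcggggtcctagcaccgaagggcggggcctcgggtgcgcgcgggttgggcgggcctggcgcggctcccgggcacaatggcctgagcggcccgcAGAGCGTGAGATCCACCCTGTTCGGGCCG
Hdac2, chr10:36974294-36974593, plus strand: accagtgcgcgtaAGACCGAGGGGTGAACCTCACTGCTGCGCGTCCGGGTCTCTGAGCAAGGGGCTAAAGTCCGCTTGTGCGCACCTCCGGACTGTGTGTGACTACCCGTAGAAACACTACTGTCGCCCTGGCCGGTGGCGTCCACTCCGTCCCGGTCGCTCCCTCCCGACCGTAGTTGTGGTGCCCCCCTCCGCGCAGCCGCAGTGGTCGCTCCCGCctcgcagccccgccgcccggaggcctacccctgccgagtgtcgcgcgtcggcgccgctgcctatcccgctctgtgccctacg
Taf9, chr13:100651093-100651392, plus strand: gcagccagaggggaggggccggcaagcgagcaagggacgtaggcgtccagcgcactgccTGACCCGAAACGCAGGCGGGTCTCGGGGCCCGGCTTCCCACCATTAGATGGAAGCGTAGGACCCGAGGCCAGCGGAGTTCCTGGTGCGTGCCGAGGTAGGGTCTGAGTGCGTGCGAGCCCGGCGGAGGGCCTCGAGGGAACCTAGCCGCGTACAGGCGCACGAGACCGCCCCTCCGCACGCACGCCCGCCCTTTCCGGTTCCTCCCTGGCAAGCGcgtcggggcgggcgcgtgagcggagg
Gm21083, chr5:15577043-15577342, plus strand: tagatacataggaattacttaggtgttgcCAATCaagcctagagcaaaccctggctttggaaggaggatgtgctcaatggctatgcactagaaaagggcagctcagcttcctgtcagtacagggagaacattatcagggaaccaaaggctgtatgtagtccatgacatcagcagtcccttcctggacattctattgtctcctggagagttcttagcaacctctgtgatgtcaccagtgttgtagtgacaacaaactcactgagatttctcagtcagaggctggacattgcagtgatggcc
All but Gm21083 are rich in CpG dinucleotides, which ranged from 26 (Cpsf2 and Chpf) to 37 (Taf9) in 300 bases, and Gm21083 has 0. The window of Cpsf2, which encodes an mRNA 3′ end processing factor, had 199 bases in both calls, that of Hdac2 had 205 and that of Taf9 had 215. In the windows of Chpf, Opn3 and Gm21083 the stretch in both calls was 80, 29 and 5 bases. Ndufb1, a gene of mitochondrial complex I, starts beside Cpsf2 on the other strand and shares these calls, as Tmem198 does with Chpf.

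Across the genome, few cKO sperm nucleosome calls coincided with a cKO ES call, but more than at shifted positions. Of the 347951 sperm calls 22337 did, or 6.42% (6.34 to 6.5). When the sperm calls were moved by 10, 20, 50 or 100 kb in either direction, the mean share was 3.7%, with 3.45% to 3.85% over the 8 shifts, so that the share in place was 1.73 times higher. In WT, 3501 of 8628 sperm calls coincided with a WT ES call, 40.6% (39.5 to 41.6) in place against 12.4% shifted, a ratio of 3.28. Scaffolds outside the numbered chromosomes, X and Y held 1510 of these WT calls (17.5%), and 0.614% of the cKO sperm calls. On them 74.4% of WT calls coincided in place and 52.9% when shifted, a ratio of 1.4. On numbered chromosomes alone the WT share was 33.4% at a ratio of 4.93, and the cKO share 6.23% at a ratio of 1.71. The SV129 lists gave 53.9% and a ratio of 4.71. The cKO list therefore held the larger number of coinciding calls and by far the smaller share.

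The share read from the other side was also low. Of the cKO ES calls 4.14% touched a cKO sperm call, 1.72 times the shifted share, and of the WT ES calls 0.523% touched a WT sperm call, 3.92 times the shifted share. By bases, the cKO calls of both stages covered 1.2 Mb together, which is 4.06% of the 29.6 Mb covered in sperm. In WT the figure was 0.182 Mb, or 23.7% of 0.77 Mb.

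The cKO sperm calls coincided about as often with the ES lists of mice that carry Gcn5. They touched a WT ES call in 6.58% of cases (ratio 1.63) and an SV129 ES call in 6.94% (ratio 1.71). WT sperm calls in turn touched cKO ES calls in 43.4% of cases, at a ratio of 3.91. Swapping the ES list thus moved the shares of the cKO and WT sperm lists little. It moved those of SV129 sperm more: 53.9% touched an SV129 ES call, 38.2% a cKO ES call and 34.4% a WT ES call. Of the cKO sperm calls on a cKO ES call, 35.5% also touched an ES call of another background and 14.5% touched calls of all 3.

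Shares on calls of earlier stages also differed between cKO and the intact lists. Of the cKO sperm calls on an ES call, 35% also lay on a call of meiotic cells (MS) or round spermatids (RS), against 82.6% in WT and 78.2% in SV129. The ratio to shifted positions was 3.27 for cKO sperm on cKO MS calls and 2.89 on cKO RS calls, both above the 1.73 for ES. In WT the same ratios were 5.13 and 9.05, both above the 3.28 for ES. A total of 301804 cKO sperm calls, 86.7%, touched no call of the 3 earlier stages, while 32.9% of WT and 20.8% of SV129 sperm calls did so. The shares in this paragraph have no shifted background. None of its values was computed without the dense windows described below, which held 40.8% of WT, 27.9% of SV129 and 2.1% of cKO sperm calls. The part of those windows in these differences was not tested.

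Coincidence depended on where a call lay, and gene ends stood out. Calls were divided by their centre into those within 500 bp of either end of a protein-coding gene, those in the rest of a gene body, and those outside genes on the numbered chromosomes, X and Y. Of 19252 cKO sperm calls at gene ends 3592 touched an ES call, 18.7% (18.1 to 19.2), against 4.45% (3.78 to 4.88 over the shifts) when shifted, a ratio of 4.19. In gene bodies the share was 6.09% against 4.04% (ratio 1.5), and outside genes it was 4.94% against 3.18% (ratio 1.55).

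Shifting moves a call away from its gene end, and ES calls are themselves more frequent there, so a second background was used. Of all positions at gene ends 6.68% would touch a cKO ES call, which lowers the ratio from 4.19 to 2.79. The same measure gave 1.61 in gene bodies and 1.99 outside genes. Gene ends had the highest ratio against either background in cKO. They held 5.57% of the sperm calls and 3.36% of the ES calls, on 1.52% of the sequence.

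Over all calls, the order of the shares was another in WT. They were 25.5% at gene ends, 29.9% in gene bodies and 38.8% outside genes, and the ratios to shifted positions were 5.2, 4.1 and 5.44. SV129 had 28.9%, 50.4% and 58.3%, at ratios of 5.61, 6.22 and 6.11. The WT order was not kept when the dense windows described below were left out: gene ends then came first, with 22.7%, before gene bodies with 16.5% and positions outside genes with 15.6%. Between cKO and both intact lists the ratios lay closest at gene ends and farthest apart in the other classes.

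**Figure D1:**
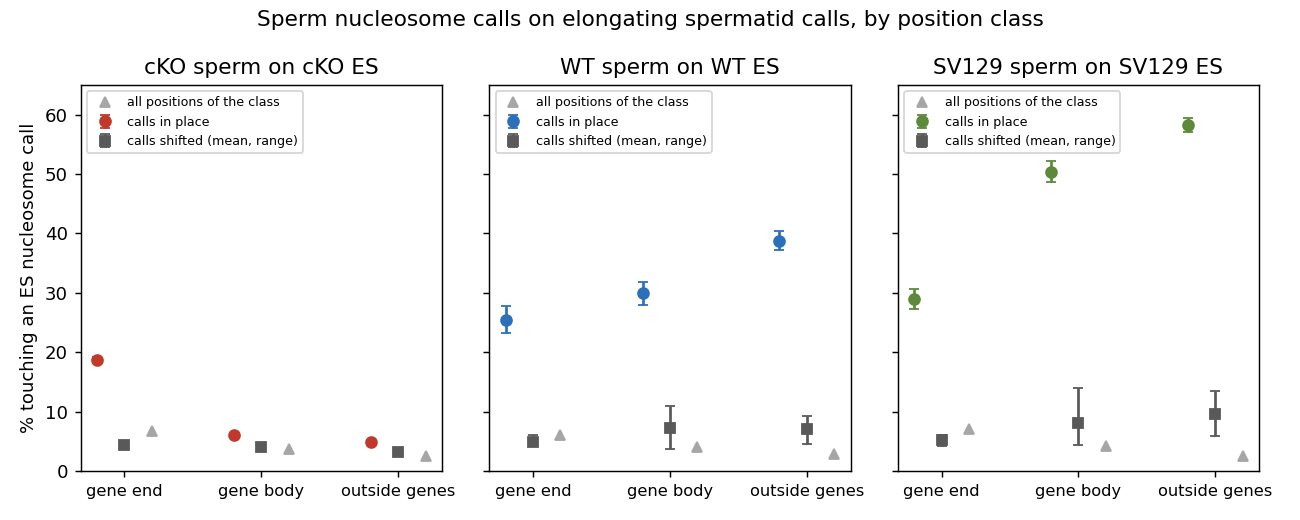
Share of sperm nucleosome calls touching an ES nucleosome call of the same background (y axis, %) for 3 classes of position (x axis), in cKO, WT and SV129. Circles are calls in place with 95% Wilson intervals, squares the mean of 8 shifts with bars for their range, and triangles all positions of the class. In cKO the gene end value, 18.7%, is the highest of the classes, and in WT and SV129 the value outside genes is, 38.8% and 58.3%, although in WT without the recurrent windows gene ends are highest, at 22.7%.

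Most of the gene end signal in cKO lay at 5′ ends. For genes whose strand could be taken from RefSeq promoter coordinates, 2775 of 13346 cKO sperm calls at 5′ ends touched an ES call, 20.8% against 4.36% shifted (ratio 4.77, or 2.26 against all 5′ end positions). At 3′ ends alone it was 191 of 2471, 7.73% against 5.03% (ratio 1.54, or 1.84 against all 3′ end positions). In WT 24.5% of 1179 calls at 5′ ends coincided (ratio 5.15), and 27 of 61 calls at 3′ ends did (44.3%, ratio 5.4).

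Both stages placed calls at the same distances from the start. Over 21238 starts the fullest 50 bp bin was centred 125 bp inside the gene for cKO ES, cKO sperm and the coinciding calls. It held 59 ES call centres, 115 sperm call centres and 29.2 coinciding sperm call centres per 1000 starts. These are 3.73, 10.6 and 21.8 times the level 800 to 1000 bp away. The WT lists peaked at the same bin, with 51.1 ES, 18.6 sperm and 4.66 coinciding centres per 1000 starts.

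**Figure D2:**
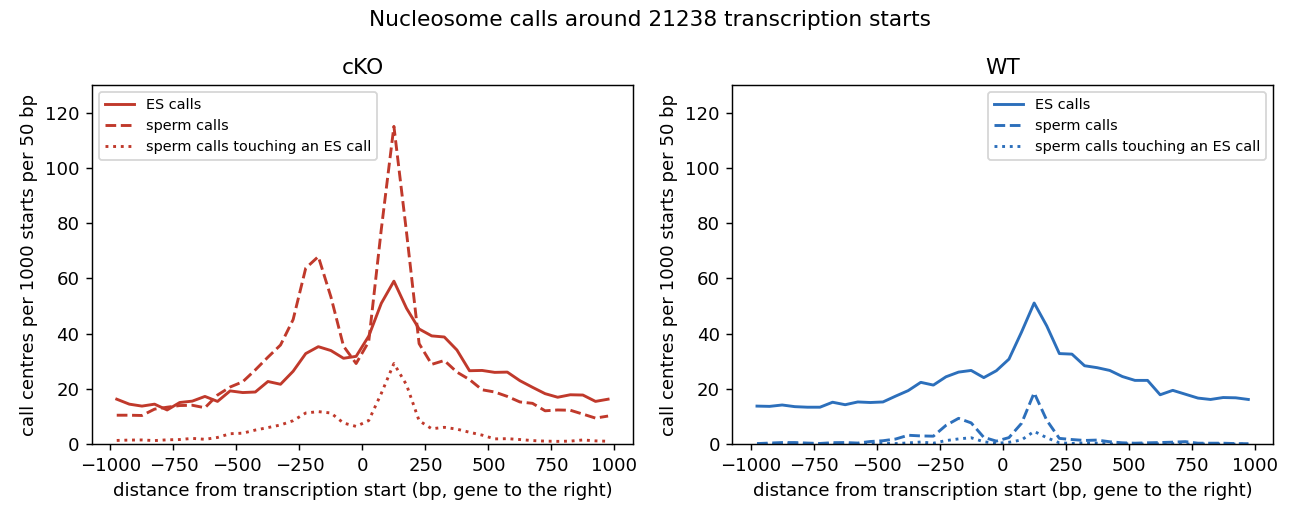
Nucleosome call centres per 1000 starts in 50 bp bins (y axis) against distance from the transcription start in bp, gene to the right (x axis), for ES calls, sperm calls and sperm calls touching an ES call of the same background, in cKO (left) and WT (right). All 3 lines peak at 125 bp in both panels, and the cKO sperm line reaches 115 against 18.6 in WT.

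Because both lists favour the same place in a promoter, starts were also exchanged with each other. When each sperm call near a start was carried to the same distance from starts 10 or 20 genes away on the same strand, 12% (11.1 to 12.8) touched an ES call, against 21.1% in place. The ratio was 1.76 over the 15448 calls so moved, and the WT ratio was 2.13 (24.1% against 11.3%). At starts with 10 or more CpG in the 300 base window the cKO ratio was 1.4, and at the others it was 2.25. With the layout of promoters kept, the excess was thus smaller than against plain shifts, in cKO and in WT.

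Promoters with a coinciding call were almost all CpG-rich. Of 21255 promoter windows with a sequence, 3315 had a cKO ES call, 4404 a cKO sperm call and 1028 a coinciding call. Among the 1028, 95.1% had 10 or more CpG, against 56.8% of all windows, and the median was 26 CpG against 13. Of the windows with a sperm call and no ES call, 86.7% had 10 or more CpG. Within the CpG-rich windows 1079 had calls of both stages, where independent placement would give 852 (ratio 1.27), and in WT it was 165 against 117 (ratio 1.41).

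Over all cKO sperm calls, ES call centres were most frequent close to the sperm call centre. ES call centres around a cKO sperm call centre were 2.63 times as frequent at 0 bp as at 800 to 1000 bp, fell to 1.12 times at 120 bp, and rose again to 1.38 times at 200 bp. At gene ends the values were 5.94 at 0 bp, 2.23 at 140 bp and 2.77 at 220 bp. In gene bodies the value at 0 bp was 2.34 and outside genes it was 2.45. Gene bodies went from 1.01 at 120 bp to 1.33 at 200 bp, and positions outside genes from 1.06 to 1.26. A second rise near the spacing of neighbouring nucleosomes was thus seen in each class, and at gene ends the whole profile was raised, with 1.57 still at 500 bp. WT sperm calls had 3.04 at 0 bp and 1.45 at 160 bp. Even so, the median cKO sperm call lay 3150 bp from the nearest ES call centre, and 75.7% lay over 1000 bp away, while the WT median was 300 bp.

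**Figure D3:**
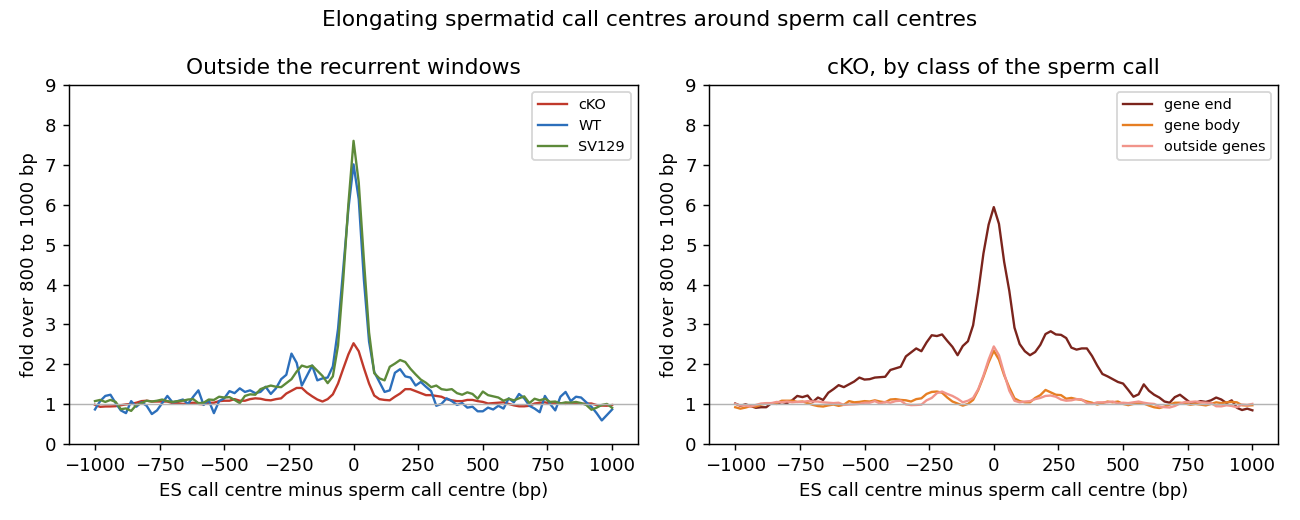
Frequency of ES call centres at each distance from a sperm call centre, in 20 bp steps, as a fold over the level at 800 to 1000 bp (y axis). Left, cKO, WT and SV129 outside the windows with recurrent subnucleosome peaks, where the value at 0 bp is 2.53 in cKO and 7.01 in WT. Right, cKO by class of the sperm call, where gene ends reach 5.94.

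A small set of dense windows held many of the intact sperm calls. The genome held 202 windows of 100 kb with an ES subnucleosome peak in all 3 backgrounds, which make up 0.741% of the sequence. They were defined after the data were seen. They held 40.8% of WT and 27.9% of SV129 sperm nucleosome calls, and 2.1% of the cKO sperm calls (7315). The fullest in WT sperm was the start of the unplaced scaffold JH584304, with 500 cKO ES, 1015 cKO sperm and 1250 WT sperm calls. Others lay at chr11:3100001-3200000 and chr9:3000001-3100000, and 5 more of the 10 fullest were on chromosome 5 between 14900001 and 15700000, where Gm21083 and Gm10354 lie. In these windows many calls stand side by side, and whether reads there map to a single place was not tested.

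Inside the windows 40.3% of cKO and 72.6% of WT sperm calls coincided with ES calls. Without them the cKO share was 5.69% against 3.54% shifted (ratio 1.61) and the WT share fell to 18.5% against 5.12% (ratio 3.62). By class the cKO ratios outside the windows were 4.16 at gene ends, 1.45 in gene bodies and 1.38 outside genes, and the WT ratios were 4.79, 3.1 and 3.35. In WT the shares were then 22.7%, 16.5% and 15.6%, so that gene ends came first in cKO and in WT. SV129 had 41.7% at a ratio of 5.5 outside the windows, with 27.2% at gene ends, 41.7% in gene bodies and 47.6% outside genes, and kept its order. Leaving the windows out thus brought the shares of cKO and WT nearer. Their ratios over all calls moved apart, while within each class the ratios of cKO and WT moved nearer.

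The cKO sperm calls that intact sperm also had were the ones that coincided most. Of the cKO sperm calls 5614, or 1.61%, touched a WT sperm call, and 57.6% of these lay on a cKO ES call (ratio 4.67). A total of 9747 touched a WT or SV129 sperm call, with 47.3% on an ES call (ratio 5.21). Among the 338204 that touched neither, the share was 5.24% against 3.55% shifted, a ratio of 1.47. At gene ends these positions, absent from both intact sperm lists, had 15.7% against 4.55% (ratio 3.45), against 1.39 in gene bodies and 1.31 outside genes.

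The score deposited with each call moved with these shares. Its meaning is not stated. In the cKO sperm list 70.1% of calls had the single most common score, against 35.5% in WT. Calls at that score coincided with an ES call in 4.67% of cases (ratio 1.36) and the other cKO sperm calls in 10.5% (ratio 2.42). At gene ends the ratios of those 2 groups were 2.99 and 5.11. In WT they were 3.27 and 3.25 over all classes. When calls at the most common score were left out of both lists the cKO ratio rose from 1.73 to 2.86, beside 3.43 in WT, and the part of the score in the contrast was not tested further.

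In cKO the autosomes were alike and the sex chromosomes differed from them. The ratio ran from 1.48 on chromosome 6 to 1.97 on chromosome 14 among the 19 autosomes, against 2.63 on chromosome 7 to 14.4 on chromosome 17 in WT, where each holds few calls. The X chromosome had few calls: 78 of 5186 sperm calls, 1.5% against 0.386% shifted, coincided, a ratio of 3.9. On the Y it was 21 of 518, a ratio of 8.28. In WT 22 of 56 sperm calls on the X coincided, 39.3% against 0.446% shifted (ratio 88), and 3 of 12 on the Y (ratio 8). A high ratio on the X was thus not particular to cKO. Across 2451 windows of 1 Mb, which share library and base composition, sperm and ES call numbers had a Pearson correlation of 0.34 and a Spearman correlation of 0.28 in cKO. In WT, where the median window held 1 sperm call, the values were 0.17 and 0.44.

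Many genes had a call near an end at both stages. Of 21887 protein-coding genes, 8205 (37.5%) had a cKO ES call within 500 bp of an end, 7712 (35.2%) a cKO sperm call, and 3674 had both, where independent placement would give 2891. The sperm call coincided with an ES call at 1745 genes (7.97%). In WT 7798 genes (35.6%) had an ES call, 1012 (4.62%) a sperm call and 228 (1.04%) a coinciding call. Among genes with a sperm call, the share whose sperm call coincided was 22.6% in cKO, 22.5% in WT and 27.5% in SV129, close to each other although the cKO list is the longest of the 3 sperm lists. When every 40th cKO sperm call was kept, to bring the list to 8699 calls, 557 genes had a sperm call and 120 a coinciding one.

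For single genes, the coinciding length is given below: the bases at the gene's ends covered by sperm calls that touch an ES call. It takes in the parts of those sperm calls that lie outside the ES call, and so can exceed the ES length.

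The protamine and transition protein genes, whose products replace the histones, had ES calls and no sperm call in cKO. Nucleosome calls covered 197 bp at the ends of Tnp1, 150 bp at Tnp2, 177 bp at Prm2 and 150 bp at Prm1 in cKO ES, and 0 bp at Prm3. In sperm all 5 genes had 0 bp. In WT ES only Prm2 had a call (170 bp), in SV129 ES 4 of the 5 did, and both intact sperm lists had none. With 5 genes, 4 of 5 against a background of 37.5% at ES is a count and no more.

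Subunits of the SAGA and ATAC complexes, in which Gcn5 works, had calls more often than all genes, in cKO and in WT. Of 27 genes, 14 (51.9%) had a cKO ES call and 18 (66.7%) a cKO sperm call, beside 37.5% and 35.2% of all genes. In WT 14 (51.9%) had an ES call and 4 (14.8%) a sperm call, beside 35.6% and 4.62% of all genes. In SV129 12 of the 27 had an ES call and 2 a sperm call, beside 39.2% and 6.78% of all genes. The SV129 sperm share was thus near that of all genes. A coinciding call was found at 4 genes in cKO, 22.2% of those with a sperm call and near the 22.6% of all genes, and at 2 genes in WT. At Trrap, the large scaffold subunit, the coinciding length was 259 bp and no sperm call was listed in WT. At Taf9 it was 215 bp. At Eny2, of the deubiquitinating module, it was 198 bp and at Yeats2, the reader subunit of ATAC, 177 bp. WT sperm calls covered 205 bp at Taf9 and did not coincide with a WT ES call, so the 2 that coincided in WT were others than these 4.

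Chromatin regulators known from histone replacement were similar. Of 34, 19 (55.9%) had an ES call, 22 (64.7%) a sperm call and 5 (14.7%) a coinciding call in cKO, beside 37.5%, 35.2% and 7.97% of all genes. Of those with a sperm call 22.7% coincided, near the 22.6% of all genes. In WT 13 (38.2%) had an ES call, 3 (8.82%) a sperm call and 1 (2.94%) a coinciding call, beside 35.6%, 4.62% and 1.04% of all genes. The greatest coinciding length was at Hdac2, 360 bp of the 610 bp that sperm calls covered there, where ES calls covered 265 bp. Parp1, which makes poly(ADP-ribose) at DNA breaks, had 197 bp, Kdm3a, a histone H3 lysine 9 demethylase required in spermatids, 180 bp, and Hdac1 170 bp. In WT sperm these 4 genes had no call, and in SV129 Hdac2 (400 bp) and Parp1 (190 bp) had coinciding calls.

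Housekeeping genes had sperm calls at 32 of 50 (64%), ES calls at 22 (44%) and coinciding calls at 7 (14%) in cKO. The shares of all genes were 35.2%, 37.5% and 7.97%. In WT the counts were 8 (16%), 22 (44%) and 0, beside 4.62%, 35.6% and 1.04% of all genes. Rps18 and Rps15, of the small ribosomal subunit, had coinciding lengths of 195 and 190 bp, and Rpl32 and Rpl5, of the large subunit, 190 and 170 bp. The 7 of 32 with a coinciding call, 21.9%, again lay near the share of all genes.

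Genes of the germ line did not form a single pattern. Of 59 spermatid genes 23 (39%) had an ES call, 23 (39%) a sperm call and 3 a coinciding call, 13% of those with a sperm call beside 22.6% of all genes. These were Gopc, needed for the acrosome (190 bp), Spag6, of the tail axoneme (150 bp), and Spem1, needed to shed sperm cytoplasm (150 bp). Of 46 meiotic genes 15 (32.6%) had an ES call, 8 (17.4%) a sperm call and 2 a coinciding call, 25% of those with a sperm call. Among the latter was Prdm9, the methyltransferase that marks recombination hotspots, with 363 bp. Of 25 histone variant genes 8 (32%) had an ES call and 8 (32%) a sperm call, and none of the sperm calls coincided. Beside these lists, 37.5% of all genes had a cKO ES call, 35.2% a sperm call and 7.97% a coinciding call.

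Developmental and receptor genes, which are largely silent in germ cells, had few coinciding calls. Of all genes 37.5% had a cKO ES call, 35.2% a sperm call and 7.97% a coinciding call. Of 89 developmental transcription factors 31 (34.8%) had a cKO ES call, 15 (16.9%) a sperm call and 1, Pax8 (320 bp), a coinciding call, 6.67% of those with a sperm call beside 22.6% of all genes. Of 1465 olfactory and vomeronasal receptor genes 202 (13.8%) had an ES call, 197 (13.4%) a sperm call and 6 a coinciding call, 3.05% of those with a sperm call. The 4 with the most were Vmn2r29 (225 bp), Olfr1469 and Olfr94 (210 bp each) and Olfr525 (150 bp). Receptor genes lie in arrays of similar copies, and calls may be split between copies. Imprinted genes lay nearer to all genes: of 37, 17 (45.9%) had an ES call, 11 (29.7%) a sperm call and 3 a coinciding call, 27.3% of those with a sperm call. These were H13 (215 bp), Mcts2, a retrogene inside H13 (177 bp), and Slc38a4 (80 bp).

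**Figure D4:**
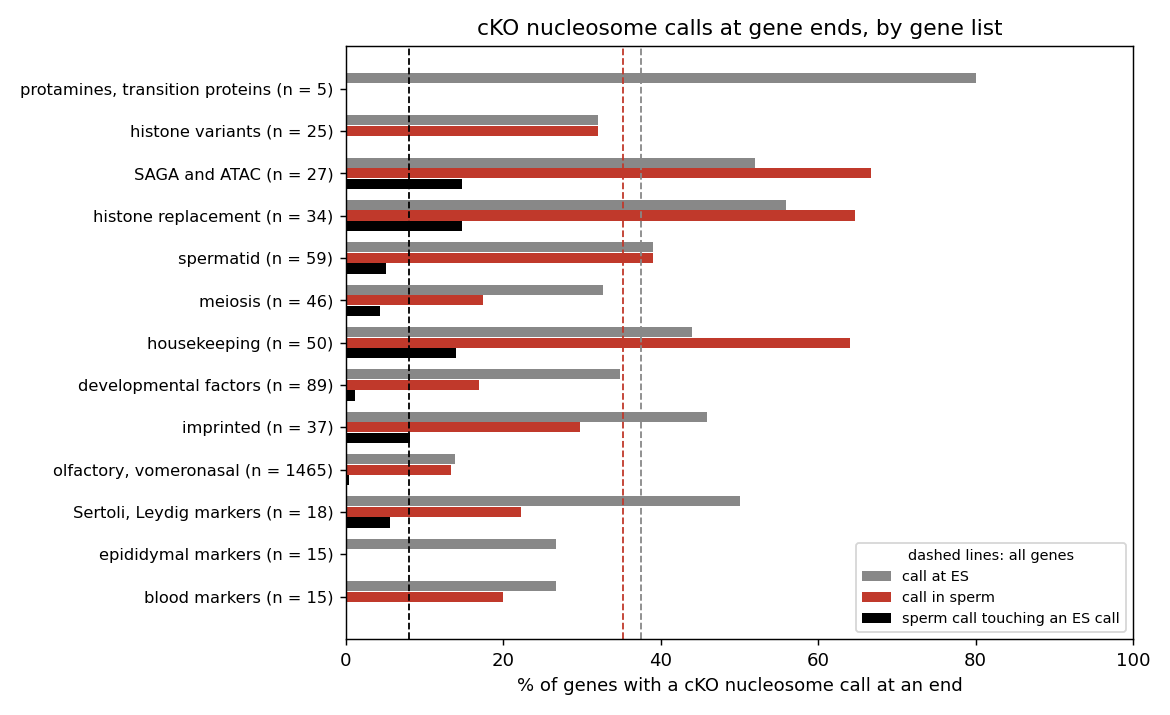
Percent of genes in each of 13 lists with a cKO nucleosome call within 500 bp of an end (x axis) at ES (grey), in sperm (red) and with a sperm call touching an ES call (black), with dashed lines for all 21887 genes at 37.5%, 35.2% and 7.97%. The SAGA, histone replacement and housekeeping lists lie above the red line, and the developmental and receptor lists below it.

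Markers of other cells were read in the same way. Of all genes 37.5% had a cKO ES call, 35.2% a sperm call and 7.97% a coinciding call. Of 18 Sertoli and Leydig cell markers 9 (50%) had a cKO ES call, 4 (22.2%) a sperm call and 1 (5.56%), Inhbb (138 bp), a coinciding call. Of 15 epididymal and epithelial markers 4 (26.7%) had an ES call and 0 a sperm call, and of 15 blood markers 4 (26.7%) and 3 (20%). In WT sperm 0 of 18, 1 of 15 and 0 of 15 had a call, beside 4.62% of all genes. A nucleosome call says nothing of expression, and the share of other cells in the libraries was not tested.

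The genes with the greatest coinciding length of all were of mixed function. LOC100504180 had 744 bp and Gm21083 711 bp, and both also had coinciding calls in WT (419 and 641 bp) and SV129 (558 and 406 bp). Chpf, a chondroitin polymerising factor, and its neighbour Tmem198 had 575 bp each, and neither had a nucleosome call in WT. The pair Cpsf2 and Ndufb1 had 575 bp in cKO, 150 bp in WT and 328 bp in SV129. Opn3, an opsin, had 552 bp, Hivep3, a zinc finger factor, 550 bp, Msh3, a mismatch repair protein, 546 bp and Gm10354 542 bp. In WT, Opn3 and Msh3 had sperm calls (150 and 170 bp) without an ES call, and Hivep3 had neither.

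Subnucleosome peaks behaved in another way, with few peaks and high coincidence. Of 1127 cKO sperm peaks 294, or 26.1% (23.6 to 28.7), touched one of the 473 cKO ES peaks, against 0.307% (0 to 0.918) when shifted, a ratio of 85.1. In WT 270 of 3024 sperm peaks did, 8.93% against 0.116%, a ratio of 76.7, and in SV129 487 of 10715 (4.55%). The numbers of coinciding peaks were near each other in cKO and WT while the WT sperm list was longer. Of the ES peaks 63% in cKO and 47.5% in WT touched a sperm peak. Peak names of each list point to a single library, and whether the other library entered is not known.

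In cKO the shares of the classes came in the reverse order to those of the nucleosome calls. At gene ends, which held 626 of the cKO sperm peaks, 8 touched an ES peak (1.28%, 0.649 to 2.5), with none at the shifted positions. In gene bodies it was 69 of 177 (39%) and outside genes 182 of 262 (69.5%). In WT it was 2 of 1490, 59 of 764 and 168 of 724, the same order as in cKO. Against all positions of the class the cKO ratios were 107 at gene ends, 9749 in gene bodies and 12820 outside genes. Against shifted positions they were 552 in gene bodies (0.0706% shifted) and 85.6 outside genes (0.811% shifted), the other order for these classes. With no shifted hit, gene ends have no such ratio. Only 19 cKO ES peaks lay at gene ends, and 42.1% of them touched a sperm peak. Of the cKO ES peaks in gene bodies 53.2% did, and of those outside genes 67.3%. The cause of the order of the shares was not tested.

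These coinciding peaks were largely the same places in all backgrounds. Of the 294, 268 (91.2%) were also in the ES lists of WT and SV129, and 219 (74.5%) in all 6 lists of ES and sperm. The windows with recurrent peaks, which the ES peaks themselves define, held 81.2% of cKO ES and 30.3% of cKO sperm peaks. Earlier stages shared more: 55.7% of the cKO sperm peaks lay on a cKO RS peak and 84.4% on a cKO MS peak, lists of 4075 and 16087 peaks. Of the 294 coinciding peaks 35 lay on scaffolds outside the numbered chromosomes, X and Y. Whether reads at the coinciding peaks map to a single place was not tested. The ratio for peaks was not computed without the recurrent windows.

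Of the coinciding peaks 8 were in neither intact ES list, and 6 of them lay at gene ends. These were at Srgap2, Zbtb20, Ebag9, Mtmr12, Ankrd50 and Rab30, with 297, 366, 239, 187, 173 and 161 bp covered in cKO sperm and all of it in peaks that touch an ES peak. All 6 had a peak in SV129 sperm, and 4 of them, Zbtb20, Ebag9, Ankrd50 and Rab30, also in WT sperm. The cKO ES peaks at these genes covered 76 bp (Mtmr12) to 171 bp (Ankrd50). None of the 6 had a coinciding nucleosome call in cKO. Over all genes, 21 (0.0959%) had a cKO ES peak at an end, 731 (3.34%) a sperm peak and 9 (0.0411%) a coinciding one, and in WT 10 (0.0457%), 1752 (8%) and 3 (0.0137%). The other 3 in cKO were LOC100504180, Gm32584 and Lars2, where the end took in 3 bp of the sperm peak.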

How the data were processed

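The authors deposited, for each group, 1 list of nucleosome calls and 1 of subnucleosome peaks, as positions with a score. The deposited score has no stated meaning, and nucleosome calls were not ranked by it (subnucleosome peaks were in an alternative). Tools listed are MACS2 2.1.0.20140616 and STAR 2.5.2a, with no role stated, on GRCm38 (mm10), per the submitters' processing notes. For the sorting of fragments and the pooling of replicates no method was found in the labels or headers. The labels' protocols give 12 PCR cycles.

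Overlaps, shifts and profiles were computed with Python 3.11.15 and numpy 2.4.6 from intervals as deposited, and tested on simulated lists. Gene positions (21887 genes), strand (17492 genes) and promoter sequences came from RefSeq tables of GRCm38.p6. All nucleosome calls are 150 bp wide. Shares have Wilson 95% intervals. The gene end class took both ends of all genes, with or without a known strand. Genes without a known strand were left out of the counts at 5′ and 3′ ends.

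Named genes were all protamine and transition protein genes, up to 4 of each other list and the 10 of all genes with the greatest length of cKO sperm calls touching an ES call, and those with a cKO subnucleosome peak at both stages. A gene that this rule names is not reported here. Members and lists were chosen with earlier results of these data known. Alternatives tried were other overlaps, shifts, gene end widths, score classes, merged intervals, numbered chromosomes and list lengths.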

Additional observations from a re-analysis of the deposited data

How the results depend on the processing

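Of 54 alternative values 40 moved and none changed direction, and all 58 ratios stayed above 1. Chosen after seeing the data were the runs without recurrent windows and those against positions of the same class.

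The ratio for cKO nucleosome calls (1.73) became 2.13 with an overlap of 50%, 1.88 with circular shifts, 1.71 on numbered chromosomes, 1.59 with merged intervals, 2.86 without the most common score, 2.98 with centres at most 20 bp apart and 1.61 without recurrent windows. For WT (3.28) the values were 4.07 with an overlap of 50%, 4.93 on numbered chromosomes, 3.15 merged, 3.43 without the most common score, 6.22 for centres and 3.62 without the windows. The ratio for cKO subnucleosome peaks (85.1) became 182, 120 and 110 with an overlap of 50%, circular shifts and numbered chromosomes, and that for WT (76.7) became 151, 128 and 97.3, and 88 in the upper 50% by score.

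By class in cKO, gene ends (4.19) gave 3.67 at 1000 bp, 6.32 without the most common score and 2.79 against class positions. Gene bodies (1.5) gave 1.45, 2.3 and 1.61, and 1.45 without the windows. Outside genes (1.55) gave 2.66 without that score, 1.38 without the windows and 1.99 against class positions. In WT gene ends gave 6.21 without the most common score and 4.16 against class positions. WT gene bodies gave 5.21 without that score, 3.1 without the windows and 7.49 against class positions. Outside genes the WT values were 7.65 without that score, 3.35 without the windows and 13.3 against class positions. Genes with a cKO sperm call (7712) fell to 557, and those with a coinciding call (1745) to 120, when every 40th call was kept. The cause of these changes was not tested, apart from the shorter list.

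No paired analysis was possible because each group has 1 deposited list without values per library, and for the same reason no replicate was left out. Read depth is unknown and its part in the numbers of calls and genes was not tested. Ratios with few shifted hits, as for subnucleosome peaks, are imprecise.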
